A study of Rattus norvegicus with 6 samples.

Results

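The genes described here encode the subunits of the oxidative phosphorylation machinery that are carried in the nuclear genome, with the complex I assembly factors, in rat liver after bromodichloromethane. They were chosen by symbol: every array probe whose RefSeq accession belongs to a rat gene beginning Nduf or Uqcr, to Sdha, Sdhb, Sdhc, Sdhd or Cyc1, or to a gene beginning Cox4 to Cox8 or Atp5. The symbols alone decided membership. It gave 83 genes with 145 probes, of 15284 gene symbols and 61657 non-control probes on the array. Of the 83 genes, 32 belong to complex I, 4 to complex II, 8 to complex III, 17 to complex IV and 15 to complex V; 6 are complex I assembly factors and 1, Cox7a2l, is a supercomplex factor. The complex IV set holds Cox6c-ps1, a transcribed pseudogene that the symbol rule also takes. A further 37 protein-coding rat genes fit the rule but matched no probe by accession and were not analysed here, among them Cyc1, Cox7a1, Ndufs6, Ndufa13 and Atp5mc3.

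The inner mitochondrial membrane holds complexes I to IV, the respiratory chain, which pass electrons from NADH and succinate to oxygen and pump protons out of the matrix, complex II alone without pumping. Complex V, the ATP synthase, lets the protons return and makes ATP. A few subunits come from mitochondrial DNA and most from nuclear genes, and hepatocytes, which run gluconeogenesis, urea synthesis and fatty acid oxidation, are rich in mitochondria.

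Livers of 6 male Sprague-Dawley (Crl:CD(SD)) rats were profiled, with 1 Agilent array per animal and Cy3 as the only dye. The vehicle group (3 rats) received corn oil and the treated group (3 rats) received bromodichloromethane, a halogenated by-product of water chlorination, at 200 mg/kg/day. The rats were bought at 5 weeks of age and carried no engineered allele. The labels' protocol gives 9 weeks of administration whereas the series design gives 28 days, so the length of exposure is not settled here.

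The 75th percentile of the processed signal ran from 670.1 to 825.4 over the 6 arrays, 61.3% to 66.9% of probes were well above background, and no non-control spot was saturated. Precision is set by how few arrays there are. The 8 hepatocyte markers, albumin and the urea cycle enzyme Cps1 among them, were all well above background on every array. Their summed level, as multiples of each array's 75th percentile, was 4146.3 to 4615.5 with corn oil and 3559.6 to 4017.9 with bromodichloromethane, with 2 of the 8 (Serpina1 and Cps1) past the test, both lower. Summed red cell markers ran from 524.9 to 779.0 and from 349.3 to 501.0, and summed macrophage markers from 111.0 to 147.7 and from 101.3 to 133.8, with none of either past the test. Of the fat cell markers, Adipoq and Ucp1 were not above background on any array and Cidea, the only one measured, ran from 3.64 to 10.6 and from 21.9 to 24.6 without passing. Summed levels were 1.75 to 1.91 and then 2.58 to 3.74 for cholangiocytes (Epcam passed, higher), 44.4 to 47.3 and 37.2 to 39.8 for endothelium (Lyve1 passed, lower) and 1.33 to 1.59 and 1.67 to 2.09 for T and NK cells (Cd3e passed, higher). For neutrophils, with Mmp8 not above background on any array, they were 1.44 to 1.84 and 2.04 to 2.48, without overlap and with no marker past the test. The sums of stellate cell, B cell, striated muscle and pancreas markers overlapped between groups, and none of those markers passed. The part of these shifts in the results below was not tested, and in whole liver fewer cells of a type and less RNA per cell cannot be told apart. One slide held treated replicate 1 beside the corn oil arrays and another held treated replicates 2 and 3, so values within the first slide are given where they matter.

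Of the 83 genes, 82 were measured, and the probe standing for each was well above background on all 6 arrays; Cox8c, a subunit known from testis, was not above background on any. A single gene passed an adjusted p of 0.05: Atp5if1, the inhibitor of the ATP synthase, which was higher after bromodichloromethane. That is 1.22% of the 82 measured genes, where 9.36% of all 28995 features passed (5.96% higher and 3.41% lower), and 7.92% of those with a gene symbol. Passing with at least a 2-fold change, as Atp5if1 did, was reached by 2.33% of all features. An unadjusted p under 0.05 was reached by 8 of the 82 genes (9.76%) and by 27.5% of all features. Of the 82 genes, 51 lay above 0 and 31 below, with a median log2 fold change of 0.04, against a median of 0.00135 over all features. The typical size of a change, the median of the absolute log2 fold change, was 0.08 for these genes and 0.20 for all features, and 70 of the 82 (85.4%) stayed within 0.2 of 0, as did 49.6% of all features.

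The spread between arrays of a group was also smaller for these genes: the median residual standard deviation was 0.0807, against 0.165 over all features. The median standard error of a log2 fold change, which limma draws toward a value shared by all features, was 0.0913 against 0.131. Most of these genes had signals above their array's 75th percentile, and they were not compared with features of like signal. Apart from Atp5if1, fold changes ran from 0.817 (Ndufv3) to 1.26 (Atp5po), and the smallest adjusted p in limma was 0.083, for Atp5po. For 78 of these 81 genes the 95% interval of the difference, not adjusted for the number of genes, lay within a 1.5-fold change in either direction, and for all 81 within 2-fold. The intervals that reached furthest from 0 were those of Uqcrq, to -0.88 on the log2 scale, and of Ndufaf4 and Cox6c-ps1, to 0.65. In 15 of the 82 genes (18.3%) the 3 treated arrays did not overlap the 3 corn oil arrays, 8 of them higher and 7 lower, where 34.4% of all features were so separated. All these directions depend on scaling each array to its own 75th percentile. With 8 spike-in probes as the reference instead, the median of all features was 0.48 and that of these genes 0.52; all 82 then lay above 0, between 0.19 and 1.5, and 57 passed as higher (69.5%, against 45.7% of all features past the threshold either way).

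**Figure D1:**
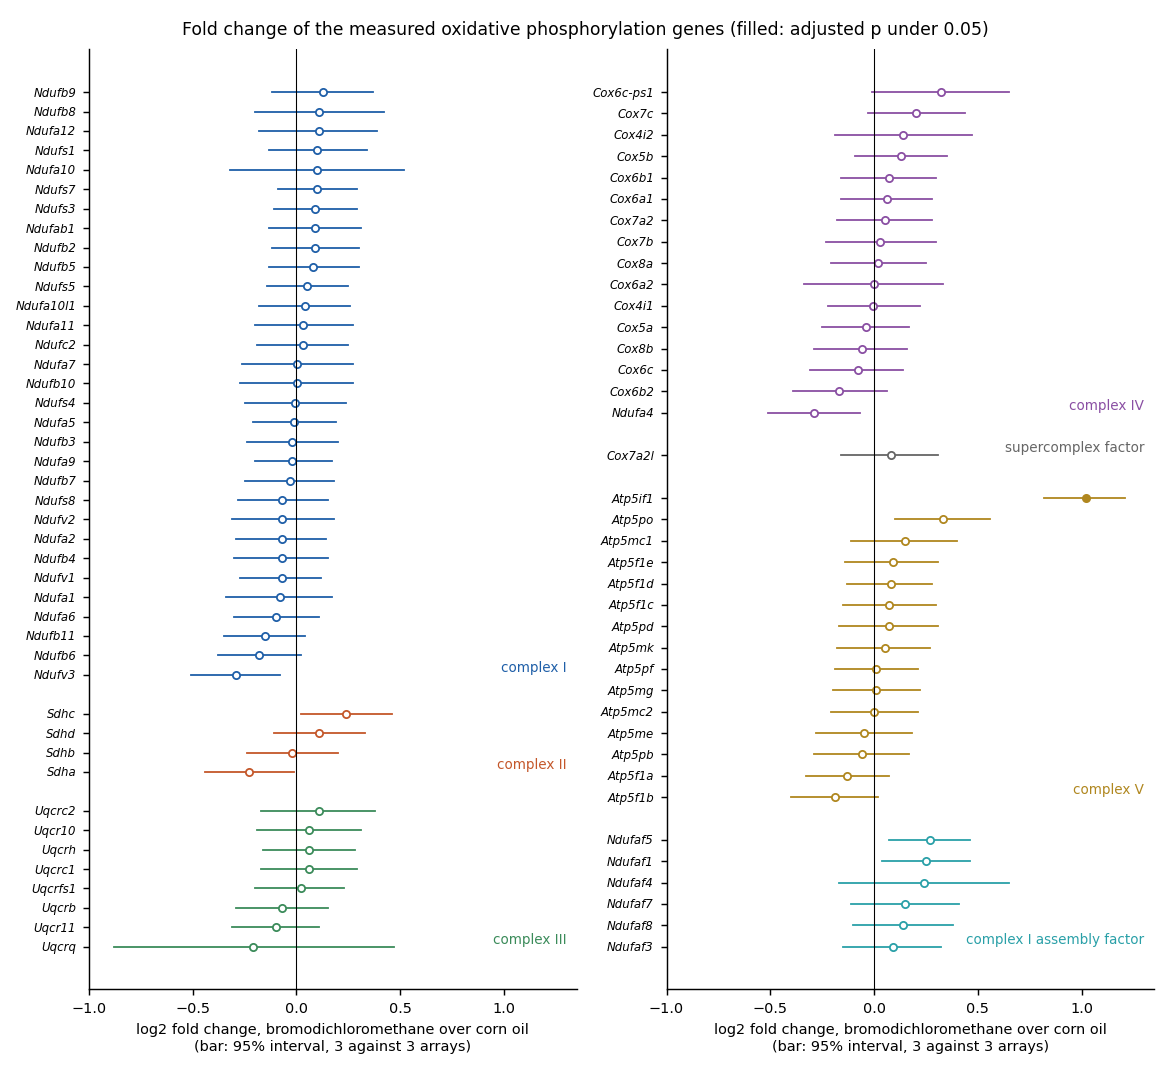
Log2 fold change of 81 of the 82 measured genes (x axis, bromodichloromethane over corn oil), grouped by complex, with bars for the 95% interval from 3 against 3 arrays; filled points passed an adjusted p of 0.05. All points but Atp5if1, at 1.02, lie between -0.29 and 0.33.

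Atp5if1 (RefSeq NM_012915) encodes the small protein that binds the catalytic head of the ATP synthase and blocks it from splitting ATP when the proton gradient fails. Its processed signal was 9193.2, 9427.5 and 10467.8 in the corn oil livers and 22626.6, 21898.9 and 20838.6 in the treated livers. As multiples of each array's 75th percentile, the level was 13.7, 12.9 and 13.8 with corn oil and 27.4, 26.6 and 27.9 with bromodichloromethane. The lowest treated liver lay far above the highest corn oil liver, and the animals of a group lay close together. The fitted log2 fold change was 1.02 (SE 0.08, 95% interval 0.82 to 1.21, n = 3 per group), a 2.02-fold rise with an adjusted p of 0.0041 in limma. By p-value 74 of the 28995 features came before it, and 1109 features, Atp5if1 included, changed at least as much in either direction. On the first slide, with 3 corn oil arrays and 1 treated array, the log2 fold change was 1.02 and did not pass. With slide as a fixed block it was again 1.02 and passed, with an adjusted p of 0.033 in limma. The other slide held treated arrays only, so this estimate rests on the same 1 treated array and is no separate check. The array carries a single probe for Atp5if1, so no second probe could be set beside it, and RefSeq lists 2 pseudogene copies with which it could share signal.

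The promoter window of Atp5if1 is shown because it is the only member that passed. Beside it stand those of Atp5po and Ndufv3, the highest and lowest of the other members, and of Sdha, the lowest of complex II. Each window is from RefSeq on GRCr8 and runs 5′ to 3′ on the gene's strand, from 250 bases before the start to 50 after it. Capitals mark matches, on either strand, to 4 motifs of factors known to drive respiratory genes: NRF1 (GCGCA, any base, then GCGC), ERR (TCAAGGTCA), YY1 (AAGATGGC) and GABP (CCGGAAGT). The Atp5if1 window lies at chr5:150026628-150026927 on the minus strand and holds no match. The Atp5po window, chr11:44657434-44657733 on the minus strand, holds 1 NRF1 match and 1 YY1 match. The Ndufv3 window, chr20:9613536-9613835 on the plus strand, holds 1 NRF1 match and the Sdha window, chr1:30764303-30764602 on the plus strand, holds 3.
Atp5if1: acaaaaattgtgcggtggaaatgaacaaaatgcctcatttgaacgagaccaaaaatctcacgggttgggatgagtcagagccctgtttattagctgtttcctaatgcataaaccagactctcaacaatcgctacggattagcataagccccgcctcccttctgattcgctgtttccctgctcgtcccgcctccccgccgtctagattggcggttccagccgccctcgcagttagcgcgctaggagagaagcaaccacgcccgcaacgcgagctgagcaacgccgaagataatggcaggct
Atp5po: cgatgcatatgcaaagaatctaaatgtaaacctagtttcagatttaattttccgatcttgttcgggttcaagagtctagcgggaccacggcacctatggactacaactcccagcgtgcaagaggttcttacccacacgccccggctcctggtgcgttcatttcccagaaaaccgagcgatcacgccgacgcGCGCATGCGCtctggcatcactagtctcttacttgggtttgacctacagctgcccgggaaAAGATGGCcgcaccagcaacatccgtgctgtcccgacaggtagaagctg
Ndufv3: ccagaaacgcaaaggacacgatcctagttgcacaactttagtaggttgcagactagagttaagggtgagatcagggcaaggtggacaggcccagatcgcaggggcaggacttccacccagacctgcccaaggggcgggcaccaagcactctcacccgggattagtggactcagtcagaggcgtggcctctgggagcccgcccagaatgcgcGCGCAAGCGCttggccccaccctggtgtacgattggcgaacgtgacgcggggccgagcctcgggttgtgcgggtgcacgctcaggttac
Sdha: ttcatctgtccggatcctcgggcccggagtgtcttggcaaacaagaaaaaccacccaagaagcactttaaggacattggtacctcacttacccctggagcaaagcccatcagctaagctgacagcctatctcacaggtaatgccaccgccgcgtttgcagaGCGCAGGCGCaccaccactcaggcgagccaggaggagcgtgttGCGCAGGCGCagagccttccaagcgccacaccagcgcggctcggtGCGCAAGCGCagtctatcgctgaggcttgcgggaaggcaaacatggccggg

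A window was found for 72 of the 82 measured genes. NRF1 matches occurred in 14 of the 72 (19.4%) against 4.3% of all 33469 promoter windows, YY1 matches in 13 (18.1%) against 3.2%, GABP matches in 7 (9.7%) against 3.8% and an ERR match in 1 (1.4%) against 0.4%. At least 1 of the 4 motifs was present in 31 of the 72 windows (43.1%) and in 3582 of all 33469. The background took every window and was not matched to the members by gene type, base composition or signal. By complex, NRF1 matches were found in 6 of 29 complex I windows, 1 of 4 for complex II, 1 of 6 for complex III, 0 of 12 for complex IV, 4 of 14 for complex V and 2 of 6 assembly factors. The antioxidant response motif TGACNNNGC was present in 9 of the 72 (12.5%) against 12.1% of all windows, and TATAAA in 6 (8.3%) against 14.2%. The Atp5if1 window holds neither of these last motifs. The median log2 fold change was 0.03 for the 31 genes with any of the 4 motifs and 0.03 for the 41 genes without. A match is only a run of letters, and its absence says nothing about the factor.

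None of the other 14 ATP synthase genes passed the test. Set against their own corn oil means, these 14 genes ran from -0.25 to 0.39 on the log2 scale in the treated arrays, whereas Atp5if1 stood at 1.02, 0.98 and 1.05. The median of the 14 in the treated arrays was -0.02, -0.02 and 0.12, so that Atp5if1 lay 1.05, 1.00 and 0.92 above it; in the corn oil arrays it lay -0.03, -0.01 and 0.03 from it. Atp5po, the stalk subunit that confers oligomycin sensitivity, had log2 levels over the 75th percentile of 6.45, 6.26 and 6.42 with corn oil and 6.74, 6.62 and 6.77 with treatment. The groups did not overlap, but the log2 fold change of 0.33 (SE 0.10) did not pass, with an adjusted p of 0.083 in limma. It passed with normexp background correction (0.44, adjusted p 0.019 in limma) and with limma's trend and robust options (adjusted p 0.041); 11.2% and 11.8% of all features passed with these settings.

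The other Atp5f1 genes did not share a direction, and none passed. Atp5f1c, Atp5f1d and Atp5f1e were at 0.07, 0.08 and 0.09, whereas Atp5f1a and Atp5f1b, which form the catalytic head, lay below 0. Atp5f1b, the beta subunit that holds the catalytic sites, measured 41.6, 43.7 and 46.2 with corn oil and 39.1, 36.9 and 39.2 with treatment, a difference of -0.19 in log2 (SE 0.09, adjusted p 0.21 in limma). Atp5f1a, the alpha subunit, measured 321.7, 295.1 and 301.8 and then 272.9, 276.5 and 290.1, a log2 fold change of -0.13 (adjusted p 0.37 in limma). In both genes every treated liver was below every corn oil liver. With spike-in scaling the value of Atp5f1b was 0.29, above 0. The membrane ring subunit is made from several genes with the same mature product, of which Atp5mc1 stood at 0.15 and Atp5mc2 at 0.00149, with adjusted p-values of 0.43 and 0.99 in limma. The median of the 15 complex V genes was 0.05.

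**Figure D2:**
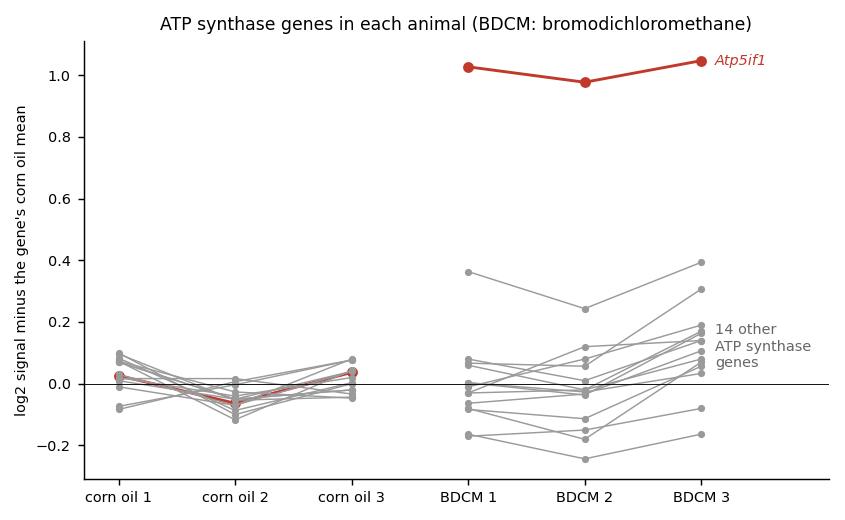
Log2 signal of the 15 ATP synthase genes in each of the 6 arrays (x axis), each gene set against its own corn oil mean (y axis); lines join the values of 1 gene and imply no order of animals. Atp5if1 is near 1 in all 3 treated livers, and the other 14 genes stay between -0.25 and 0.39.

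Complex I, the NADH dehydrogenase, had 32 measured genes and a median log2 fold change of 0.00247. No gene passed in limma, and 1 had an unadjusted p under 0.05; 17 genes lay above 0 and 15 below, and 31 of the 32 stayed within 0.2 of 0. Ndufv3, an accessory subunit of the NADH-binding arm, had the lowest value. It measured 101.6, 103.3 and 96.0 times the 75th percentile with corn oil and 76.7, 82.9 and 86.3 with bromodichloromethane, with no overlap. The log2 fold change was -0.29 (SE 0.09, 95% interval -0.51 to -0.08), with an adjusted p of 0.094 in limma, and -0.39 on the first slide alone. It passed with normexp correction (-0.36, adjusted p 0.028 in limma) and with the trend and robust options (adjusted p 0.046). Of its 4 probes 3 gave -0.29, -0.28 and -0.38 and the fourth gave 0.08, so the low value was not shared by all of them. With spike-in scaling Ndufv3 stood at 0.19.

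The core subunits of complex I, which hold the flavin and the iron-sulfur clusters, did not pass and stayed close to 0. Ndufs1, the largest subunit of the NADH-oxidising arm, measured 14.1, 13.3 and 14.9 with corn oil and 15.1, 14.0 and 16.4 with treatment, a log2 fold change of 0.10 (adjusted p 0.54 in limma). Ndufv1, which binds NADH and the flavin, measured 59.6, 56.2 and 57.5 and then 56.2, 52.3 and 56.0, a log2 fold change of -0.07 (adjusted p 0.61 in limma). The groups overlapped in both. Further core subunits were at 0.09 (Ndufs3), 0.10 (Ndufs7), -0.07 (Ndufs8) and -0.07 (Ndufv2), with adjusted p-values from 0.47 to 0.7 in limma. Ndufs7, which carries the last cluster before ubiquinone, measured 60.3, 58.1 and 58.3 with corn oil and 61.8, 62.0 and 65.4 with treatment, so its groups separated by a small step, as did those of Ndufs3. The highest complex I value was 0.13, for the accessory subunit Ndufb9 (adjusted p 0.46 in limma). Ndufb6 and Ndufb11, accessory subunits of the membrane arm, were below every corn oil liver in all treated livers, at -0.18 and -0.15 (adjusted p 0.23 and 0.28 in limma).

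Complex II, succinate dehydrogenase, links the tricarboxylic acid cycle to the chain, and its 4 genes did not share a direction. None passed in limma, and 2 had an unadjusted p under 0.05. Sdha, the flavoprotein that oxidises succinate, measured 95.7, 90.5 and 93.3 with corn oil and 76.5, 76.9 and 85.9 with treatment. All treated values were lower, with a log2 fold change of -0.23 (SE 0.09, 95% interval -0.44 to -0.01) and an adjusted p of 0.16 in limma; with spike-in scaling the value was 0.26. Sdhc, a membrane anchor, measured 17.4, 17.9 and 19.3 and then 20.6, 21.1 and 22.9. All treated values were higher, with a log2 fold change of 0.24 (SE 0.09, 95% interval 0.02 to 0.46) and an adjusted p of 0.15 in limma. The iron-sulfur subunit Sdhb and the other anchor, Sdhd, overlapped between groups, at -0.02 and 0.11 (adjusted p 0.92 and 0.47 in limma).

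Complex III, which passes electrons from ubiquinol to cytochrome c, had 8 measured genes with a median of 0.04. None passed in limma, none had an unadjusted p under 0.05, and the groups overlapped in all 8. Uqcrfs1, the Rieske iron-sulfur protein, measured 39.4, 37.0 and 40.6 with corn oil and 37.2, 41.2 and 40.1 with treatment, a log2 fold change of 0.02 (adjusted p 0.92 in limma). The core proteins Uqcrc1 and Uqcrc2 were at 0.06 and 0.11 (adjusted p 0.73 and 0.6 in limma). The lowest value was that of the small subunit Uqcrq, which varied within each group: 1.53, 1.74 and 2.49 with corn oil and 1.20, 1.59 and 2.25 with treatment. Its log2 fold change of -0.21 had an SE of 0.28, and its other probe was not above background on any array. On the first slide alone Uqcrq stood at -0.64, the lowest value of any member there (SE 0.32, adjusted p 0.39 in limma). The median of complex III was -0.08 on the first slide alone, on the other side of 0.

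Complex IV, cytochrome c oxidase, reduces oxygen and has subunits that come in tissue forms. No gene of 16 measured passed in limma, 1 had an unadjusted p under 0.05, and the median was 0.03. Ndufa4, named for complex I but now placed in complex IV, was the lowest, at 99.6, 96.3 and 99.3 with corn oil and 85.7, 74.3 and 81.6 with treatment. The groups did not overlap, and the log2 fold change was -0.29 (SE 0.09, 95% interval -0.51 to -0.07) with an adjusted p of 0.098 in limma. It passed with the trend and robust options (adjusted p 0.049 in limma), and with spike-in scaling it stood at 0.19. Cox7c, a small membrane subunit, measured 6.87, 6.59 and 6.63 and then 7.16, 7.48 and 8.56, all treated livers being higher (0.20, adjusted p 0.24 in limma). The pseudogene Cox6c-ps1 had the highest value, 0.32 (SE 0.14, adjusted p 0.2 in limma), with overlap between the groups; Cox6c itself, with which it could share signal, was at -0.08.

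Neither the liver forms nor the muscle and other tissue forms of complex IV subunits passed. Cox4i1, the common form of subunit 4, measured 187.4, 169.2 and 168.7 with corn oil and 169.7, 169.9 and 184.3 with treatment, a log2 fold change of -0.00335, and Cox4i2, the form best known from lung, was at 0.14 (adjusted p 0.99 and 0.56 in limma). Cox6a1 and the muscle form Cox6a2 were at 0.06 and -0.00192, and Cox6b1 and the testis form Cox6b2 at 0.07 and -0.17. Cox8a and Cox8b, another muscle form in rodents, were at 0.02 and -0.06. Cox7a2 was at 0.05 and Cox7b at 0.03; Cox7a1 and Cox7b2 had no probe by accession. Adjusted p-values over these 8 genes ran from 0.3 for Cox6b2 to 0.99 for Cox6a2 in limma. Cox6a2 and Cox8b were dim in corn oil livers, at 0.385 to 0.440 and 0.0785 to 0.0862 times the 75th percentile. The 2 Cox6b2 probes lay far apart in level, at log2 3.48 to 3.66 and -5.06 to -4.07 with corn oil. Whether the brighter probe reports Cox6b2 was not tested. Cox5a and Cox5b, nuclear subunits beside the catalytic core, were at -0.04 and 0.13 (adjusted p 0.82 and 0.42 in limma), and Cox7a2l, which joins complexes III and IV into supercomplexes, was at 0.08 (adjusted p 0.64 in limma).

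The complex I assembly factors build the complex and are not part of the finished enzyme. All 6 measured Ndufaf genes lay above 0, as did 14553 of all 28995 features. Their values lay between 0.09 and 0.27 with a median of 0.19, where the median absolute change of all features was 0.20. None of the 6 passed in limma, and 2 had an unadjusted p under 0.05. Those 2 are 33.3% of the 6 genes, against 27.5% of all features. Ndufaf5, which hydroxylates a core subunit during assembly, measured 2.91, 2.85 and 3.09 with corn oil and 3.48, 3.58 and 3.58 with treatment. The groups did not overlap, and the log2 fold change was 0.27 (SE 0.08, 95% interval 0.07 to 0.46) with an adjusted p of 0.094 in limma. Ndufaf1, a chaperone of the membrane arm, measured 0.935, 0.870 and 0.870 and then 1.12, 1.01 and 1.05, a difference of 0.25 in log2 (SE 0.09, adjusted p 0.13 in limma). It too separated the groups, as 34.4% of all features did, and it passed with normexp correction (0.31, adjusted p 0.044 in limma). Ndufaf4 was at 0.24 (SE 0.17) by its brightest probe and at 0.36, 0.48 and 0.58 by its other 3, the last with an adjusted p of 0.062 in limma over all probes.

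Array by array, the medians of the complexes shifted together by small amounts. With each gene set against its mean over the 6 arrays, the median of the 82 genes was 0.03, -0.06 and 0.00 in the corn oil arrays and -0.02, -0.03 and 0.09 in the treated arrays. Treated replicate 3 had the highest median in complexes I to V, from 0.07 to 0.12, although the median of all features there was 0.02. The other treated arrays lay among or below the corn oil arrays for complexes I, III, IV and V. The assembly factors differed from this, with medians of -0.14, -0.12 and 0.01 with corn oil and 0.10, 0.08 and 0.11 with treatment. Leaving treated replicate 3 out moved the median of the 82 genes from 0.04 to -0.01.

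**Figure D3:**
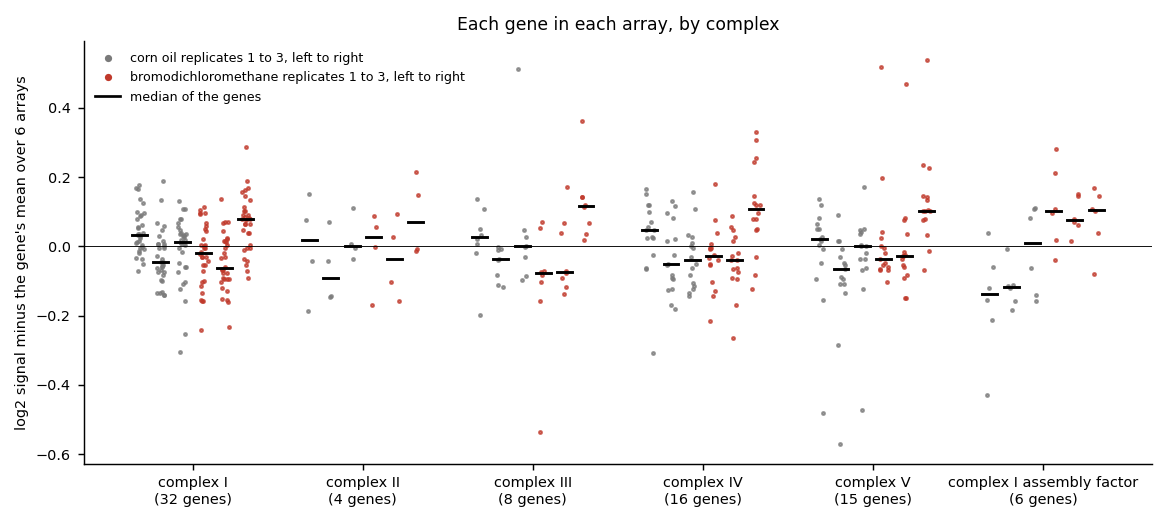
Log2 signal of each gene minus its mean over the 6 arrays (y axis), by complex, with corn oil replicates in grey and bromodichloromethane replicates in red; black bars are medians over the genes. The medians of complexes I to V lie between -0.09 and 0.12 with treated replicate 3 highest, and the red points near 0.5 in complex V are Atp5if1.

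Different probes of a gene mostly lay close in log2 fold change but did not always share a direction. Of the 145 probes 141 were kept, and 41 genes had more than 1. The range of log2 fold change between the probes of a gene had a median of 0.07 and was under 0.2 in 33 of the 41. It was largest in Ndufv3, at 0.46, followed by Ndufaf4, Ndufc2, Ndufaf7 and Cox6b1, at 0.30 to 0.34. All probes of a gene had the same sign in 27 of the 41. The median absolute log2 fold change of the 82 genes was itself only 0.08, so a small range does not show agreement in direction. Apart from Atp5if1, single probes ran from -0.38 to 0.58, and over all probes tested separately Atp5if1 was again the only member past the threshold. For 43 of the 82 genes RefSeq lists a copy or pseudogene by symbol with which a probe could share signal; Ndufa10 and Ndufa10l1 are such a pair, at 0.10 and 0.04.

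**Figure D4:**
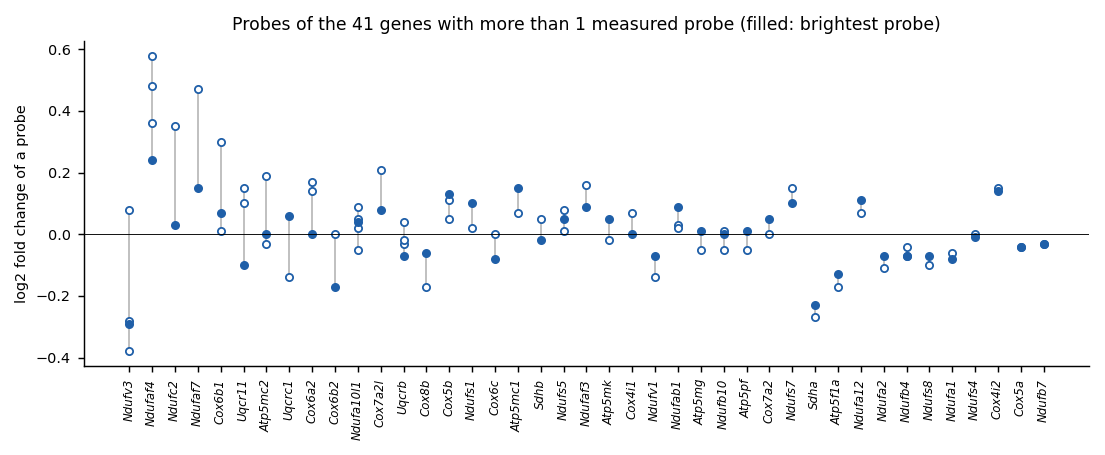
Log2 fold change of every kept probe (y axis) for the 41 genes with more than 1 (x axis, ordered by range); filled points are the probes that stand for the gene. Ranges fall from 0.46 in Ndufv3 to 0.00, and 33 are under 0.2.

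Genes that work beside these subunits were counted from lists by function. Of 29 measured assembly factors outside the symbol rule, 2 rose and none fell, with a median log2 fold change of 0.02. These 2 are 6.90% of the list, where 9.36% of all features passed. Lyrm7, which hands the Rieske protein to complex III, had log2 levels over the 75th percentile of -1.76, -1.59 and -1.46 with corn oil and -0.89, -0.96 and -0.95 with treatment, a rise of 0.67 (SE 0.10, adjusted p 0.02 in limma). Coa3, which stabilises the first subunit of complex IV during its synthesis, had log2 levels of 2.90, 2.99 and 3.14 and then 3.60, 3.65 and 3.53, a rise of 0.58 (SE 0.10, adjusted p 0.023 in limma). As in 34.4% of all features, both genes separated the groups fully. With an array left out their adjusted p ran from 0.038 to 0.078 and from 0.044 to 0.092 in limma, Lyrm7 passing only without corn oil replicate 1 or 3 and Coa3 only without corn oil replicate 3, and with slide as a fixed block they were 0.092 and 0.11. Of 19 measured genes for electron inputs and mobile carriers, 2 rose and none fell, with a median of 0.05. That is 10.5% of the list, against the same 9.36% of all features. Cycs, cytochrome c, had log2 levels of 5.19, 5.10 and 5.25 and then 5.53, 5.54 and 5.59, a rise of 0.37 (SE 0.08, adjusted p 0.046 in limma), and Coq4, needed for ubiquinone synthesis, rose by 0.38 (SE 0.08, adjusted p 0.046 in limma). Both adjusted p-values lay just inside the threshold, and neither gene passed once any single array was left out (0.081 to 0.14 for Cycs and 0.076 to 0.15 for Coq4 in limma). They also did not pass with slide as a fixed block (0.19 and 0.21 in limma) or as a random block (0.054 and 0.055). Prodh, proline dehydrogenase, had the largest difference of this list, at -0.59 (SE 0.16) with no overlap between the groups, and did not pass (adjusted p 0.075 in limma).

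None of 16 genes of the tricarboxylic acid cycle and pyruvate dehydrogenase passed in limma (median 0.10, 3 with an unadjusted p under 0.05). Citrate synthase (Cs) was at 0.32, with an adjusted p of 0.11 in limma. None of 10 genes for ADP/ATP and phosphate exchange and uncoupling passed (median 0.02, 1 with an unadjusted p under 0.05). None of 15 regulators of mitochondrial biogenesis passed (median -0.000250, 1 with an unadjusted p under 0.05): the mitochondrial transcription factor Tfam was at 0.05, and the coactivator Ppargc1a, at low signal, was at 0.76 with an SE of 0.33 and an adjusted p of 0.2 in limma. Beside them, 25 of 74 cytosolic ribosomal protein genes passed as higher and none as lower (33.8%, median 0.36); with any single array left out 0 to 7 passed, all of them higher, and 0 with slide as a fixed block, while the median stayed between 0.31 and 0.41. Of 66 mitochondrial ribosomal protein genes and 38 genes with proteasome symbols none passed in limma. They had 12 and 4 genes at an unadjusted p under 0.05 and medians of 0.08 and -0.00425. Choice by symbol also took Psmc3ip, which is not a proteasome subunit, into the 38. The medians of these lists are descriptions and were not tested against each other. Over all features, 9.36% passed and 27.5% had an unadjusted p under 0.05.

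**Figure D5:**
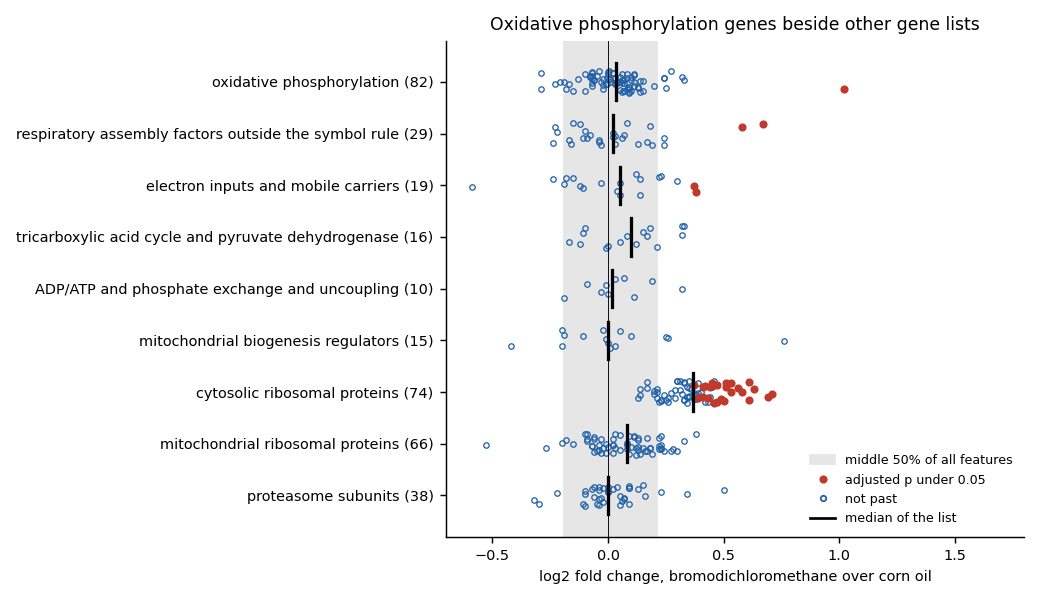
Log2 fold change (x axis) of every measured gene of the oxidative phosphorylation set and of 8 other lists, with the number of genes in brackets; red points passed an adjusted p of 0.05, black bars are medians and the grey band holds the middle 50% of all features, -0.19 to 0.21. The oxidative phosphorylation median is 0.04 with Atp5if1 alone in red, whereas 25 of 74 cytosolic ribosomal genes are red.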

How the data were processed

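RNA from 6 rat livers went onto Agilent arrays with a single dye, and scans were quantified with Feature Extraction 10.7, per the submitters' processing notes (10.7.1.1 per the file headers). The deposited processed intensity is background-subtracted and not scaled between arrays. The deposited value table holds a ratio: from its values, the processed signal over its array's 75th percentile (at least 96.4% of probes within 1%, column medians 0.0954 to 0.1020). The table was used as an alternative; log2 ratios from it were taken here, not by the authors. Processed intensities were taken to log2 and each array's 75th percentile was subtracted. Spots flagged as outliers removed 27 probes. Of 61657 probes, 27460 (44.5%) matched 1 RefSeq symbol of GRCr8 by accession and 34197 none; the array design is on rn4, so only the promoter windows carry coordinates.

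The 39027 probes kept were well above background in every array of one group or both, and the brightest stood for a gene (28995 features). The treated and corn oil arrays were compared in R 4.3.3 by limma 3.58.1 (lmFit, eBayes, two-sided, Benjamini-Hochberg over all features, threshold 0.05), and the fit was tested on simulated data. Every adjusted p is from limma. Alternatives varied background, scaling, filter, probe rule, fit options, slide and arrays used. Normexp used the median signals, since the mean signal is not a column of the files used here.

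Members and lists were chosen with earlier results of these data known. By rule, the text names genes past the threshold, the extremes and smallest p of each complex, core subunits, tissue isoforms and the regulators Atp5if1 and Cox7a2l; other genes are named with their values seen. Of the other lists only some genes are named, and 1 core subunit is not reported here.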

Additional observations from a re-analysis of the deposited data

How the results depend on the processing

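Atp5if1 passed the threshold in 20 of 21 alternatives, with log2 fold changes from 0.99 to 1.5, and missed it on the first slide alone (1.02, adjusted p 0.092 in limma). Leaving out each array in turn gave 0.99 to 1.04. The count of member genes past the threshold, 1 higher and 0 lower, became 3 and 1 with normexp, 2 and 2 with trend and robust options, 57 and 0 with spike-in scaling, and 0 higher on the first slide; it stayed 1 and 0 with each array left out. Spike-in scaling moved the medians to 0.49 in complex I, 0.53 in II, 0.52 in III, 0.51 in IV, 0.53 in V and 0.68 in the assembly factors, while the median of all features went to 0.48. Normexp gave -0.01 in complex II, and quantile normalization gave -0.03 in complex I, -0.02 in III and V and -0.01 in IV. The first slide alone or slide as a fixed block gave -0.08 in complex III, -0.04 in IV and -0.01 in V. Complexes I and II were then at 0.00 and 0.07. On the first slide alone 65 of the 82 members had the sign of the main fit. The assembly factor median of 0.19 became 0.25 with normexp or median centring and 0.26 with the mean over probes. With each array left out the medians ran from -0.02 to 0.03 in complex I, 0.01 to 0.08 in II, 0 to 0.06 in III, -0.02 to 0.08 in IV, -0.01 to 0.07 in V and 0.14 to 0.23 in the assembly factors.

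The count of all features, 2715, became 13249 with spike-in scaling, 4126 with array weights, 609 with no filter on dim probes, which adds features to the adjustment, 350 with slide as a fixed block and 120 on the first slide, which leaves 1 treated array, taken to vary like the others. Each array left out gave 335 to 1232. Of the called features 63.6% were higher, 74.2% with median centring and 97.6% with spike-in scaling. Of 39 named genes short of the threshold, 22 changed sign in at least 1 alternative and 27 passed in at least 1, most with spike-in scaling. The cause of the other changes was not tested.

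Groups share replicate numbers. Deviations of same-numbered arrays correlated at 0.09, 0.02 and 0.12, and those of differently numbered arrays at -0.10 to 0.00. The same-numbered values were thus the higher ones, though all were small. The main fit did not take the numbers as pairs, and whether they mark pairs was not tested. With the replicate block 353 features passed, and Atp5if1 kept its call (adjusted p 0.04 in limma); 1 member was higher and 0 lower. Lyrm7, Coa3, Cycs, Coq4 and Ptafr did not pass with it (0.069 to 0.11 in limma), nor did any cytosolic ribosomal gene.

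With 3 animals per group and a median standard error of 0.0913, shifts well above that size in single genes also fell short of the threshold. Atp5po at 0.33, Ndufv3 at -0.29 and Ndufa4 at -0.29 had adjusted p-values of 0.083, 0.094 and 0.098 in limma. A gene that did not pass is therefore not shown to be unchanged.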

Other observations

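The genes measured on either side of Atp5if1 in RefSeq's order, picked with their values seen, differed from one another. Sesn2 and Med18, on one side, were at -0.71 (SE 0.20, adjusted p 0.083 in limma) and -0.50 (SE 0.12, adjusted p 0.052 in limma). On the other side Dnajc8 was at 0.12 (adjusted p 0.36 in limma), Ptafr, the receptor of platelet-activating factor, rose by 0.48 (SE 0.10, adjusted p 0.036 in limma) and Eya3 was at 0.04 (adjusted p 0.85 in limma). With any single array left out Ptafr did not pass, at adjusted p-values of 0.074 to 0.12 in limma, nor with slide as a fixed block (0.16 in limma).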
